A study of Mus musculus with 6 samples.

Results

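The genome organization of C2C12 myotubes treated with the cytidine analogue AraC was described from a single Hi-C matrix, using the 4737 of 5455 bins of 500 kb that lay on an autosome and held data. C2C12, an established cell line, grows as mouse myoblasts, which stop dividing and fuse to form myotubes with many nuclei once serum is reduced. AraC (cytosine arabinoside) blocks DNA synthesis and thereby kills cells that still divide, which removes unfused myoblasts from a culture of post-mitotic myotubes. Hi-C crosslinks chromatin, cuts it with a restriction enzyme (HindIII here), ligates ends that lay close together and sequences the ligation products, so that each read pair reports a contact between 2 places in the genome. The series held 3 conditions with 2 biological replicates each, 6 libraries in all: proliferating myoblasts at day 0, myotubes at day 3 of differentiation without the drug, and myotubes at day 7 that had received AraC at 10 µg/ml from day 3. Only the last condition was used here. Its 2 replicates came from separate source vials and had been pooled by the authors before deposit, so every value below is a single value without replicate error, no test was run, and spreads are given over the 19 autosomes or their 171 pairs, which are not replicates. The matrix averages over all nuclei of a culture, in which some unfused cells may remain, and an effect of AraC and one of longer differentiation cannot be told apart. The matrix holds no expression values, so the identity of the cells could not be checked against marker genes, and it follows the chromosomes of the reference genome, whereas the karyotype of the line was not analysed here.

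Mammalian chromosomes fold so that gene-rich, early-replicating chromatin (the A compartment, euchromatin) preferentially contacts other such chromatin, while gene-poor, late-replicating chromatin (the B compartment, heterochromatin, much of it at the nuclear lamina and around nucleoli) contacts its own kind. The pattern appears as a plaid in a contact map and extends between chromosomes, although each chromosome occupies its own territory. In muscle, fusion and withdrawal from the cell cycle are accompanied by activation of the sarcomere genes, and the compartment of a gene describes the large-scale neighbourhood in which it lies, not whether it is transcribed. Each deposited value is the Pearson correlation between the normalized interaction profiles of 2 bins. A coefficient above 0 therefore means that both bins contact similar parts of the genome, not how often they touch each other. Because every profile spans the genome, coefficients within a chromosome (cis) and between chromosomes (trans) are not independent of one another.

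Of the 4930 autosomal bins, 193 had no data by the criterion used (a value above 0.5 on the matrix diagonal); 114 of these lay in the first 3 Mb of an autosome, where the reference has no sequence, and no bin fell between 0 and 0.5. The sign of the first principal component (PC1), computed for each autosome and oriented so that it rises with the density of transcription start sites (TSSs) of protein-coding genes, placed 1678 bins in A and 3059 in B. A thus held 35.4% of the bins (exact binomial 95% interval 34.1 to 36.8%, counting error only), ranging from 29.0% on chr 6 to 43.9% on chr 11. The component explained 44.5% of the variance on chr 14, 86.7% on chr 11 and 63.4% on the median autosome. Its orientation was weakly determined on chr 13, where *r* of PC1 with TSS number was 0.05 and with GC content 0.28; on the other autosomes *r* with TSS number lay between 0.24 and 0.69 (chr 15).

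Sequence composition, which played no part in calling the compartments beyond the orientation by TSSs, differed between A and B. For GC content, repeats and HindIII sites the quartile ranges of A bins and B bins overlapped. The median GC content was 44.5% in A bins and 40% in B bins, the median number of CpG dinucleotides 10.8 and 6.64 per kb, and the median share of repeat-masked bases 28.2% and 35.0%. A bins also carried fewer HindIII sites, with medians of 30.4 and 33.4 per 100 kb, and the part of this in the coefficients was not tested. To show the difference at the level of letters, the promoters (250 bases before to 50 after the TSS, RefSeq, GRCm38.p6, 5′ to 3′ on the strand of the gene) of *Fnbp1* and *Tcp11*, from the bins of the strongest A-A pair of different autosomes, are set beside those of *Edn3* and *Tshz2*, from the bins ranked 4 and 7 by lowest mean trans coefficient with A. In each bin the first gene with a promoter matched to that bin was taken, and in B the first 2 bins with such a gene. CpG dinucleotides are in capitals.
Fnbp1 (A, chr2:31141959-31142258, minus strand): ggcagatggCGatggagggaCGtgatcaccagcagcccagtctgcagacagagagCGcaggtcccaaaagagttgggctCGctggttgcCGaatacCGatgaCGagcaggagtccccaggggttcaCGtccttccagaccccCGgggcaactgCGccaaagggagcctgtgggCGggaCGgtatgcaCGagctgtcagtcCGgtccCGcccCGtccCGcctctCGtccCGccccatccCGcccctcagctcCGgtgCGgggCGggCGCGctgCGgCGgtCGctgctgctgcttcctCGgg
Tcp11 (A, chr17:28080590-28080889, minus strand): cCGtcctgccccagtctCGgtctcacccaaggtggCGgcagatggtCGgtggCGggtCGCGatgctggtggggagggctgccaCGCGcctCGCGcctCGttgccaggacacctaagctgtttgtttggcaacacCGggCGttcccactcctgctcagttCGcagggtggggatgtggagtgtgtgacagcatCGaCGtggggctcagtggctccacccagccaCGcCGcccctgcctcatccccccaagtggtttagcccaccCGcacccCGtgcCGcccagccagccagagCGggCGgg
Edn3 (B, chr2:174760369-174760668, plus strand): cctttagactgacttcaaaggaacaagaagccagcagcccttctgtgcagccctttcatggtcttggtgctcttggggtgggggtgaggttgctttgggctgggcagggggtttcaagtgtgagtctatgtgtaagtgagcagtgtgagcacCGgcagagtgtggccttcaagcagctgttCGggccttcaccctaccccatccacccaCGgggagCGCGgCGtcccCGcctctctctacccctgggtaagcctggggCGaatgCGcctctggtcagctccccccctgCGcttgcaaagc
Tshz2 (B, chr2:169632259-169632558, plus strand): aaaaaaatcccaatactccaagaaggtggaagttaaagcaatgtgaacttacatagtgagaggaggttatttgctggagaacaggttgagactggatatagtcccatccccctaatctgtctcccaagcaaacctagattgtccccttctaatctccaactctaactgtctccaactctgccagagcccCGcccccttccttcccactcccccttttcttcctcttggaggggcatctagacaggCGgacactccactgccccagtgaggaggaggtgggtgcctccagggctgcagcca

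The A promoters of *Fnbp1* (a membrane-curving adaptor of endocytosis) and *Tcp11* (a testis protein) held 29 and 24 CpGs in 300 bases, against 10 in that of *Edn3* (endothelin 3) and 2 in that of *Tshz2* (a zinc finger transcription factor). Over all 8879 matched promoters in A the median was 18 CpGs (quartiles 7 and 27), and over 6551 in B it was 8 (quartiles 2 and 22). Promoters with 10 or more CpGs made up 70.6% of the first and 47.3% of the second. The contrast between the printed examples is therefore larger than that between typical promoters, whose middle ranges overlapped.

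Correlation fell with distance along the chromosome. Adjacent bins, 0.5 Mb apart, had a mean coefficient of 0.109 ± 0.0254 (SD over 19 autosomes), and the mean was 0.0896 at 1 Mb, 0.0642 at 2 Mb, 0.0482 at 3 Mb and 0.0282 at 5 Mb. From 5 Mb on the fall was slower. The mean reached 0.0178 at 13 Mb, its lowest point up to 15 Mb, stood at 0.0215 ± 0.0235 at 20 Mb and had declined to 0.0113 at 30 Mb and 0.0085 ± 0.0095 at 50 Mb, where 18 autosomes had at least 20 pairs. The autosomes differed by more than the later part of this decline. At 10 Mb their means ran from -0.0264 on chr 15 to 0.0796 on chr 11, and at 40 Mb from -0.0200 on chr 9 to 0.0912 on chr 19, the shortest autosome.

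When pairs were separated by compartment, the fall over the first megabases coincided with a change in which pairs were compared. At 0.5 Mb 88.8% of pairs joined bins of the same compartment, at 2 Mb 71.4% and at 5 Mb 57.8%, after which the share stayed between 48.3 and 57.2% at the listed distances up to 100 Mb. Within A-A pairs the mean dropped from 0.187 at 0.5 Mb through 0.131 at 5 Mb to 0.106 at 10 Mb and 0.0822 at 50 Mb. B-B pairs lost far less, from 0.0852 at 0.5 Mb through 0.0657 at 10 Mb to 0.0584 at 50 Mb. A-B pairs were positive only when adjacent: the mean was 0.0250 at 0.5 Mb, -0.0054 at 1 Mb, -0.0457 at 5 Mb and -0.0529 at 50 Mb. At 30 to 50 Mb the A-A mean was close to that of A-A pairs on different autosomes (0.0824). Farther apart it lay on both sides of that value: 0.0948 at 60 Mb, 0.0692 at 80 Mb and 0.0919 at 100 Mb, the last from only 98 pairs. The B-B mean was above the trans B-B mean of 0.0413 at each of these distances, 0.0495 at 100 Mb being the lowest.

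**Figure D1:**
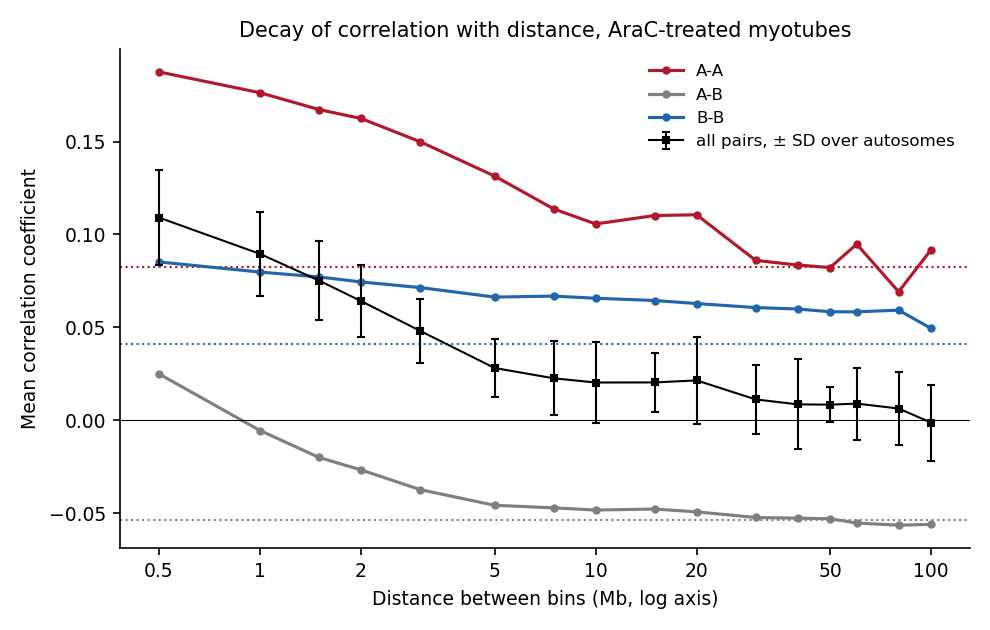
Mean correlation coefficient against the distance between bins on the same autosome (log axis, Mb) in AraC-treated myotubes, for all pairs (black squares, bars ± SD over autosomes) and for A-A, B-B and A-B pairs, with dotted lines at the trans mean of each class. A-A pairs fall from 0.187 at 0.5 Mb to near the trans line (0.0824) at 50 Mb, B-B pairs are above theirs (0.0413) up to 100 Mb, and A-B pairs are below 0 at 1 Mb (-0.0054) and at 100 Mb (-0.0559).

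Bins of the same compartment were positively correlated and bins of different compartments negatively, both within and between autosomes. In cis the means were 0.0995 for 76529 A-A pairs, 0.0603 for 265655 B-B pairs and -0.0523 for 282976 A-B pairs, and in trans 0.0824 for 1330474 A-A pairs, 0.0413 for 4411556 B-B pairs and -0.0534 for 4850026 A-B pairs. The spread over autosome pairs of the trans means was 0.0222 (A-A), 0.0052 (B-B) and 0.0079 (A-B). A-A exceeded B-B in each of the 171 autosome pairs, and A-B lay below both in each of them. In cis A-A exceeded B-B on 14 of the 19 autosomes; chr 7 (0.0637 and 0.0644), chr 10 (0.0722 and 0.0734), chr 13 (0.0633 and 0.0660), chr 14 (0.0482 and 0.0613) and chr 18 (0.0692 and 0.0851) were the others. The sign of a class mean follows in part from the way PC1 is built, which is itself computed on the cis block. The trans block was not used to call compartments, but it is not independent of the cis block, as every profile spans the genome. In the trans block 4574 bins (96.6%) had the higher mean coefficient with bins of their own compartment on other autosomes.

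A-A coefficients were not only higher but far more variable than B-B coefficients. In trans the SD over bin pairs was 0.0955 for A-A, 0.0262 for B-B and 0.0480 for A-B, and the middle 90% of A-A pairs spanned -0.0218 to 0.279 against -0.0009 to 0.0848 for B-B. The median A-A coefficient was 0.0531, so the distribution had a long upper tail. Nearly all B-B pairs were slightly positive (94.6% above 0), while 84.5% of A-A pairs were. PC1 was likewise asymmetric, which follows in part from its construction: it is centred on 0 in each autosome, and fewer bins were in A. Divided by the SD of its autosome, PC1 reached 2.84 in A but only -1.39 in B. Above 2 SD lay 286 A bins, while 0 B bins lay below -2 SD. The median was 1.14 in A and -0.67 in B, and 420 bins (8.87%) lay within 0.2 SD of 0, so that their assignment was weak.

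**Figure D2:**
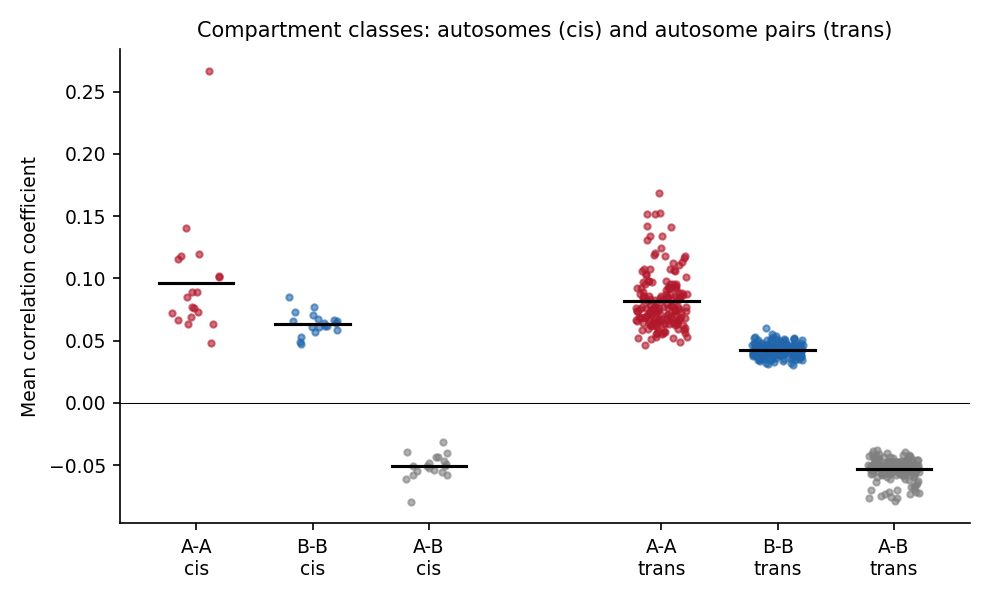
Mean correlation coefficient of A-A, B-B and A-B bin pairs for each of 19 autosomes (cis, left) and each of 171 autosome pairs (trans, right), with black lines at the unweighted mean of the points. A-B points are all below 0 and A-A points the most spread, with chr 11 at 0.267 in cis.

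A graded picture emerged when bins were divided into quintiles of PC1 (per SD) and compared in trans. Pairs within the highest quintile, all of whose 948 bins were in A, averaged 0.187 ± 0.0894 (SD over bin pairs), pairs within the lowest quintile 0.0753 ± 0.0224, and pairs of the lowest with the highest quintile -0.108 ± 0.0369. The quintile below the highest, with 730 of 947 bins in A, averaged only 0.0109 with itself, 0.0249 with the highest quintile and -0.0155 with the lowest. A mean as high as that of the highest quintile was thus found in the upper part of A and not across A as a whole. PC1 comes from the same matrix, so this gradient follows in part from the ranking by PC1. Gene density followed the same order only in part: it was 16.9 protein-coding genes per Mb in the highest quintile and 9.66 in the one below it, but 5.77 in the lowest quintile against 4.67 in the next. GC content likewise was lowest in that next quintile (median 38.7%) and not in the lowest (40.9%), so the most B-like bins were not the most AT-rich.

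Gene density set the sign of the compartments, so the direction of its relation to them is no finding, but the relation was loose. Of 1153 bins without a protein-coding TSS, 129 (11.2%, 95% interval 9.43 to 13.2%) were in A, and of 628 bins with 10 or more, 418 (66.6%, 62.7 to 70.2%) were, leaving 210 gene-dense bins in B. Across 4737 bins PC1 per SD correlated with GC content (Pearson *r* 0.56, Spearman rho 0.47), CpG density (0.58 and 0.50) and HindIII sites (-0.42 and -0.35). Inside A, the mean trans coefficient of 1678 bins with other A bins correlated with GC content at 0.49 and with TSS number at 0.35. Inside B, the mean coefficient of 3059 bins with other B bins correlated with GC content at -0.02 and with TSS number at -0.13. With HindIII sites the same means correlated at -0.39 inside A and at 0.16 inside B. These describe bins of a single matrix, in which neighbours share sequence composition and profile, and carry no p-value.

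The means of whole autosome pairs were small compared with the differences between compartments. They ran from -0.0048 for chr 6 with chr 11 to 0.0161 for chr 18 with chr 19, with an SD of 0.0031 over the 171 pairs, and 22 were below 0. With medians in place of means chr 2 with chr 11 was the lowest pair and chr 6 with chr 11 was at 0.0015, and chr 2 with chr 11 was also the lowest when each pair was given the same proportions of A-A, B-B and A-B pairs. The highest pair was chr 18 with chr 19 in both. The next highest were chr 17 with chr 19 (0.0129), chr 15 with chr 19 (0.0108), chr 16 with chr 19 (0.0105) and chr 11 with chr 17 (0.00997). The next lowest were chr 3 with chr 11 (-0.0041), chr 2 with chr 11 (-0.0037), chr 7 with chr 11 (-0.0033) and chr 2 with chr 19 (-0.0032). Averaged over its 18 partners, an autosome's mean ran from 0.000896 ± 0.0022 (SD over partners) for chr 2 and 0.0012 ± 0.0047 for chr 11 to 0.0062 ± 0.0052 for chr 19, with chr 14 (0.0055) and chr 18 (0.0053) next. Most neighbours in this order thus differed by less than the spread over partners.

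Shorter autosomes had the higher means (Pearson *r* with length -0.76, Spearman rho -0.72, 19 autosomes), but the relation rested on the use of the mean: with the median coefficient of each autosome pair, *r* was -0.10. Giving every autosome pair the same proportions of A-A, B-B and A-B pairs left an SD of 0.0031 and an *r* with length of -0.81, whereas the proportions alone, at the genome-wide class means, gave an SD of only 0.00079. The means of chr 11 lay on both sides of 0. They were below 0 with 8 of its 18 partners (chr 1, 2, 3, 4, 6, 7, 8 and 10) and among the highest with chr 17 (0.00997), chr 19 (0.0098), chr 15 (0.0079) and chr 9 (0.0070). The pairs among chr 9, 15, 17 and 19 were also all positive (0.0053 to 0.0129), but so were 149 of all 171 autosome pairs. The group was singled out after the values were seen.

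**Figure D3:**
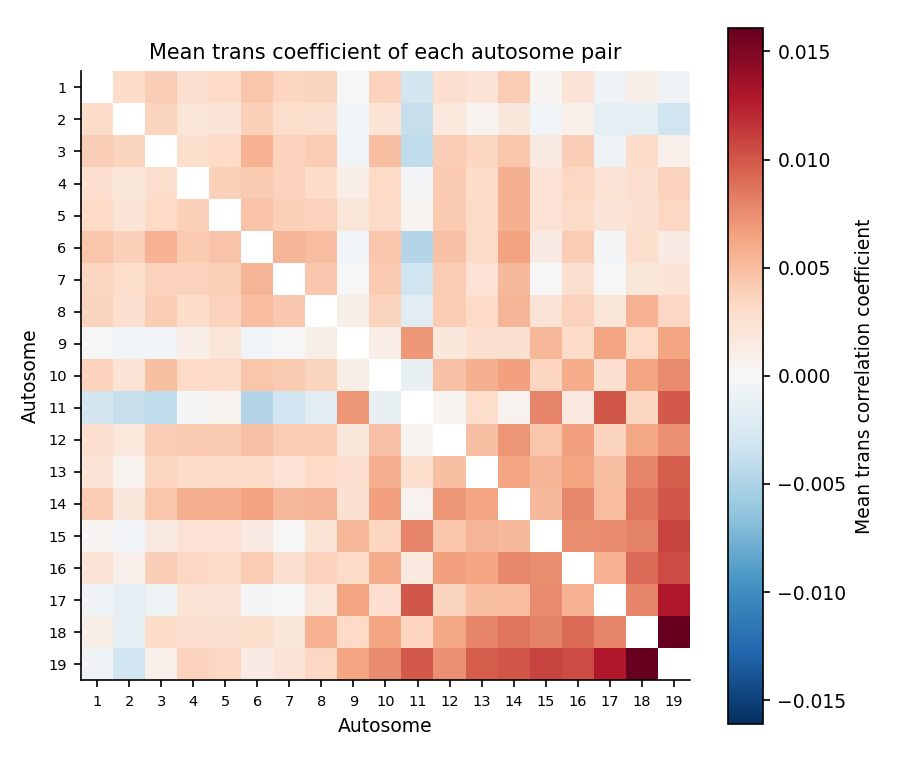
Mean trans correlation coefficient of each of the 171 pairs of autosomes (colour, symmetric about 0; the diagonal is blank). The darkest cell is chr 18 with chr 19 (0.0161). Chr 11 is below 0 (blue) with most of the long autosomes, the lowest with chr 6 (-0.0048), but not with chr 5 (0.00058). Its highest values (red) are with chr 9, 15, 17 and 19.

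By compartment, the differences between autosome pairs lay mainly in A. The A-A mean of an autosome pair ran from 0.0467 (chr 7 with chr 14) to 0.168 (chr 11 with chr 15), the B-B mean from 0.0308 to 0.0604 (chr 18 with chr 19) and the A-B mean from -0.0786 (chr 2 with chr 11) to -0.0379. All of the 5 highest A-A means involved chr 11, with chr 15, 17, 9, 19 and 2 as partners. Chr 11 also had the highest cis A-A mean (0.267, against 0.140 for chr 15 as the next), the lowest cis A-B mean (-0.0793) and the widest trans separation, with an A-A mean of 0.128 and an A-B mean of -0.0711 over its 18 partners. It is among the most gene-dense autosomes, with 13.8 protein-coding genes per Mb of bins with data. Chr 14 was at the other end, with a cis A-A mean of 0.0482, a cis A-B mean of -0.0317 and a trans A-A mean of 0.0600. Over the 19 autosomes the trans A-A mean correlated with GC content (*r* 0.66, rho 0.59) and with gene density (0.56 and 0.55), but hardly with length (-0.17 and -0.15). Chr 7, which has the highest gene density (14.3 per Mb, many of them olfactory and vomeronasal receptor genes), nevertheless had one of the lower trans A-A means, 0.0675.

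The 163 bins whose trans preference was opposite to their compartment were split by autosome. On chr 9, 11, 15 and 17 these were B bins only (28 in all) that were on average closer to A bins elsewhere, and on the other 15 autosomes A bins only (135 in all) closer to B bins elsewhere. All 163 had an absolute PC1 under 0.5 SD (median 0.09, highest 0.41). The zero of PC1 is set within each autosome, so on the first 4 it lay above, and on the others below, the level at which the trans coefficients with A and with B were equal.

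Runs of bins of 1 compartment were 0.5 to 34 Mb long, where a bin without data also ended a run. There were 273 A runs, with a median length of 2 Mb (quartiles 0.5 and 4 Mb) and a longest of 19 Mb, and 300 B runs, with a median of 3.5 Mb (quartiles 1.5 and 7 Mb). When runs were continued over bins without data, there were 272 A and 275 B runs, with medians of 2 and 4 Mb. The chromosome medians had an SD of 0.947 Mb for A and 1.26 Mb for B. Runs of a single bin numbered 69 in A (25.3%, 95% interval 20.2 to 30.9%) and 39 in B (13%, 9.41 to 17.3%), and they were weakly assigned, with a median absolute PC1 of 0.21 and 0.15 SD against 0.95 and 0.65 for longer runs. At the other extreme, 42 B runs of 10 Mb or more held 42.1% of all B bins, and 15 such A runs held 22.6% of all A bins.

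**Figure D4:**
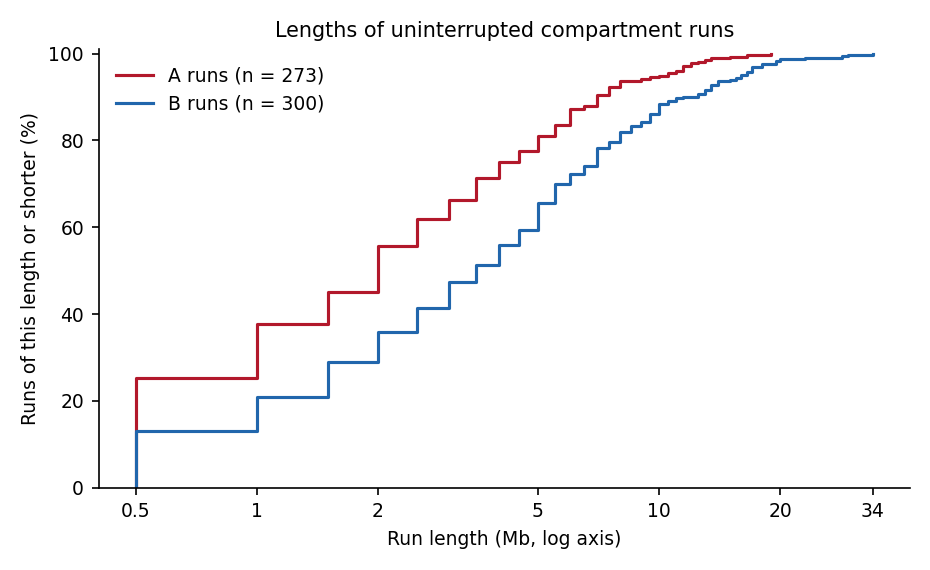
Cumulative share of A runs (red, n = 273) and B runs (blue, n = 300) against run length in Mb (log axis). The B curve lies to the right of the A curve throughout, with medians of 3.5 and 2 Mb and longest runs of 34 and 19 Mb.

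The longest B run was chr1:94000001-128000000 (34 Mb), with 80 protein-coding genes, or 2.35 per Mb, beginning with *Neu4*, *Pdcd1*, *Fam174a* and *St8sia4*, followed by chr16:56000001-85500000 (29.5 Mb, 3.12 genes per Mb, from *Pcnp*, *Trmt10c*, *Senp7* and *Impg2*) and chr4:12000001-40500000 (28.5 Mb, 2.95 genes per Mb, from *Tmem67*, *Rbm12b2*, *Rbm12b1* and *Fam92a*). Their median PC1 was moderate, -0.68, -0.67 and -0.60 SD. The longest A run, chr12:69000001-88000000 (19 Mb, 215 genes, 11.3 per Mb, median PC1 1.54 SD), began with *Rps29*, *Lrr1*, *Rpl36al* and *Gm49383*. Next came chr11:94000001-110500000 (16.5 Mb), which held 406 genes, or 24.6 per Mb, from *Tob1*, *Wfikkn2*, *Gm21885* and *Luc7l3*, and then chr13:23500001-38500000 (15 Mb, 9.40 per Mb), which opened with replication-dependent histone genes (*Hist1h4h*, *Hist1h2af*, *Hist1h3g*, *Hist1h2bh*). Long B runs were poorer in genes than short ones, with 4.22 genes per Mb in runs of 10 Mb or more, 6.79 in shorter runs of several bins and 6.72 in single bins. Long A runs were richer, with 15.3, 13.7 and 10.4 per Mb.

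Runs differed in profile from edge to centre, more so in A. In the 121 A runs of at least 5 bins, the median PC1 was 0.52 SD in the outermost bins, 1.22 in the second bins from either side and 1.58 farther in, and the median trans coefficient with other A bins, a measure from other autosomes, was 0.0345, 0.0874 and 0.121. In the 192 B runs of that size the corresponding trans coefficients with B bins were 0.0325, 0.0464 and 0.0442, so that the inner level was already reached in the second bin. The edges are set by PC1 itself, whose lower size there is only a description. Gene density hardly changed across A runs (14.5, 14.8 and 14.1 per Mb), whereas B runs were more gene-dense at their edges (9.03 per Mb) than in the second bins (5.80) and farther in (4.50).

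The strongest trans pairs formed a small set of gene-dense A regions. The highest coefficient, 0.568, joined chr2:31000001-31500000 (*Fnbp1*, *Gpr107*, *Ncs1* and *Hmcn2*, first of 5 genes) with chr17:28000001-28500000 (*Tcp11*, *Scube3*, *Zfp523* and *Def6*, first of 9). The chr 17 bin was in 6 of the 10 highest pairs, also with chr15:99500001-100000000 (0.568; *Faim2* and the water channel genes *Aqp2*, *Aqp5* and *Aqp6*, first of 14), chr8:122000001-122500000 (0.565; *Zfpm1*, *Trhr2*, *Zc3h18* and *Il17c*, first of 9), chr4:134500001-135000000 (0.553; *Aunip*, *Mtfr1l*, *Selenon* and *Man1c1*, first of 10), chr2:32000001-32500000 (0.551; *Fam78a*, *Plpp7*, *Prrc2b* and *Pomt1*, first of 14) and chr2:28500001-29000000 (0.550; *Gm10134*, *Ralgds*, *Cel* and *Gtf3c5*, first of 11). Other bins recurred as well. The bin chr8:122500001-123000000, which holds *Piezo1* (a mechanosensitive channel) and *Cdt1* (a replication licensing factor) beside *Aprt* and *Galns*, was paired with chr2:29500001-30000000 (0.555; *Rapgef1*, *Gm13420*, *Gm13547* and *Trub2*, first of 11) and with chr15:99500001-100000000 (0.553). The last was also paired with the chr 4 bin (0.549). The remaining pair joined chr8:120500001-121000000 (*Gins2*, *1190005I06Rik*, *Gm27021* and *Emc8*, first of 6) with chr15:78500001-79000000 (0.555; *C1qtnf6*, *Sstr3*, *Rac2* and *Cyth4*, first of 16). The 10 coefficients lay between 0.549 and 0.568, and without replicates their order has no known error.

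All of the 1000 highest of the 10592056 trans pairs (coefficient 0.484 or more) joined A with A, and they used only 108 bins, 6.44% of the A bins. The bins fell into 31 contiguous stretches on 14 autosomes. Those with the most pair ends were chr2:25500001-33500000 (383 of 2000 ends, 186 genes), chr15:76000001-82000000 (309, 172 genes), chr17:25000001-29000000 (280, 119 genes), chr8:119500001-125000000 (256, 100 genes) and chr4:133500001-137500000 (208, 88 genes), and 60.7% of the pairs joined only chr 2, 4, 8, 15 and 17 with one another. Chr 11, for all its high A-A means, supplied 43 ends from 15 bins. That low number belongs to this cut: among the 10000 highest trans pairs chr 11 had the most pair ends, ahead of chr 15 and chr 2. The 108 bins held a median of 12 protein-coding genes against 5 in the other 1570 A bins, 49.0% GC against 44.2%, 14.3 CpGs per kb against 10.6 and 26.2 HindIII sites per 100 kb against 30.6, with a similar share of repeats (27.6% and 28.2%).

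Which pairs ranked highest depended on whether bins kept their own scale. After subtracting the mean trans coefficient of both bins, 942 of the 1000 pairs stayed in the set and all were still A-A. When each pair was instead ranked within the trans coefficients of both of its bins, only 113 stayed, the set spread over 988 bins, and 18.9% of it was A-A while 719 pairs were B-B. That the strongest pairs were A-A thus held for the size of the coefficients and not for their rank within each bin. Leaving out bins within 5 Mb of a data end kept 735 of the 1000 pairs. The autosomes with the most pair ends were then chr 2, 15 and 8, in that order, against chr 15, 2 and 17 with all bins.

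Among B-B pairs the highest coefficient was 0.209, between chr12:106500001-107000000 and chr15:88000001-88500000, both without a protein-coding TSS. Another of the 3 highest joined chr11:34000001-34500000 (*4930469K13Rik*, *Lcp2*, *Foxi1*, *Fam196b*) with the same chr 15 bin (0.205). The 1000 highest B-B pairs reached down to 0.152 and used 249 bins, of which chr15:87000001-87500000 took part in 102. These bins had the same median gene number as the other B bins (1), but a higher GC content (43.7% and 39.7%) and fewer repeats (25.8% and 35.8%), although over all B bins the mean trans coefficient with B hardly correlated with GC content (-0.02).

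The highest A-B coefficients stood apart from a class mean of -0.0534. They were 0.220 for chr4:140000001-140500000 (*Igsf21*) with chr11:52500001-53000000 (*Fstl4*), 0.215 for the same chr 11 bin with chr15:101500001-102000000 (*Gm49425*, *Krt84*, *Krt82* and *Krt90*, first of 20), and 0.210 with chr8:126000001-126500000 (*Slc35f3*, *Coa6*, *Tarbp1*). That chr 11 bin was in 136 of the 1000 highest A-B pairs. It was a single-bin B run with PC1 of -0.30 SD between A bins on either side (0.43 and 0.17 SD), and its mean trans coefficient was 0.0132 with A bins and 0.00996 with B bins. Its assignment was therefore weak, as the 2 trans means hardly differed. The lowest trans coefficient of all was -0.255, between chr11:34000001-34500000 and chr15:81000001-81500000, followed by -0.254 for the same chr 11 bin with chr16:92500001-93000000 (*Runx1*, the only protein-coding TSS there) and -0.254 for chr11:33000001-33500000 (*Fgf18*, *Npm1*, *Tlx3*, *Gm12117*) with chr15:99500001-100000000.

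Ranked by their mean trans coefficient with all A bins, the bins at the top were again few neighbourhoods. The highest was chr15:81000001-81500000 (0.191; *Mrtfa*, *Mchr1*, *Slc25a17* and *St13*, first of 7), where *Mrtfa* encodes an actin-regulated coactivator of serum response factor. Chr 15 supplied 5 of the 10 highest (the others being 0.189 at 99.5 Mb, 0.188 at 80 Mb with *Pdgfb*, *Rpl3*, *Syngr1* and *Tab1* first of 10 genes, 0.188 at 80.5 Mb with *Enthd1*, *Grap2*, *Fam83f* and *Tnrc6b* first of 6, and 0.187 at 100.0 Mb with *Dip2b*, *Atf1*, *Tmprss12* and *Mettl7a1* first of 12). The rest were 2 adjacent chr 8 bins (0.189 at chr8:120000001-120500000 with *Zdhhc7*, *6430548M08Rik*, *Fam92b* and *Gse1*; 0.185 at 119.5 Mb with *Slc38a8*, *Mbtps1*, *Hsdl1* and *Dnaaf1* first of 15), the chr 17 bin of the strongest pair (0.188), chr 12 at 85.0 Mb (0.186; *Prox2*, *Dlst*, *Rps6kl1* and *Pgf*, first of 11) and the *Runx1* bin of chr 16 (0.186). The last shows that a high value did not need many genes.

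At the bottom, the mean with A bins was -0.103 at chr2:179000001-179500000 (*Cdh4*, a cadherin) and between -0.101 and -0.0985 in the next 9 bins. Of the 10, 5 were on distal chr 2: beside the first, 178.5 Mb (no protein-coding TSS), 174.5 Mb (*Zfp831*, *Edn3*), 169.0 Mb (none) and 169.5 Mb (*Gm11011*, *Tshz2*). The others were 2 gene-free bins of chr 15 (87.0 and 86.5 Mb), chr 8 at 89.0 Mb (*Sall1*), chr 11 at 34 Mb and chr 10 at 122.5 Mb (*Ppm1h*). All 10 had a GC content of 44.4% or more, above the B median of 40%. By PC1 per SD the highest bins were all on chr 3, at 89.0 Mb (2.84; *Gm43738*, *Rusc1*, *Fdps* and *Pklr*, first of 30), 96.0 Mb (2.81; *Vps45*, *Otud7b*, *Mtmr11* and *Sf3b4*, first of 18) and 89.5 Mb (2.79; *Kcnn3*, *Adar*, *Chrnb2* and *Ube2q1*, first of 8), and the lowest were chr 13 at 59.0 and 57.0 Mb (-1.39 and -1.37, no protein-coding TSS) and chr 17 at 49.0 Mb (-1.37; *Mocs1*).

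Genes were placed by the bin of their TSS. Of 20396 protein-coding genes in bins with data, 11672 were in A (57.2%), with a median PC1 of 0.41 SD, and each list below is to be read against that share. These shares have exact 95% intervals that cover counting error only and treat genes of a bin as separate, although they share its value.

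Muscle genes lay in both compartments, with shares in A from 56.2 to 72.7% over 4 lists, and all 4 intervals held the 57.2% of all genes. Of 35 sarcomere genes 22 were in A (62.9%, interval 44.9 to 78.5%; median 1.21 SD), of 19 myogenic transcription factors and their partners 13 (68.4%, 43.4 to 87.4%; median 1.54), of 22 genes of excitation-contraction coupling 16 (72.7%, 49.8 to 89.3%; median 1.17) and of 16 genes of fusion and adhesion 9 (56.2%, 29.9 to 80.2%; median 0.68). High in A lay *Myoz1* (2.67 SD; a Z-disc protein), *Acta1* (2.57; skeletal actin) and *Tnnc1* (2.45; troponin C) among sarcomere genes, *Mef2d* (2.73) and *Myog* (2.46), which drive terminal differentiation, and *Cdh15* (2.61) and *Mymk* (2.30), the latter the membrane protein myomaker that is needed for fusion. *Myod1*, the determination factor, was at 1.73 SD. *Ttn* and *Neb*, the giant scaffold genes of the sarcomere, were at 1.29 and 0.58.

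The sarcomere genes in B were led in number by the cluster of skeletal myosin heavy chains on chr 11 (*Myh3*, *Myh2*, *Myh1*, *Myh4* and *Myh8*), which share 1 bin and hence 1 value, -0.54 SD, with a mean trans coefficient of -0.0153 with A bins and 0.0196 with B bins. These code for the motor of the contractile filament, embryonic and perinatal forms included. The others in B were *Actn2* (-0.85), *Myot* (-0.73), *Mybpc1* (-0.71), *Lmod2* (-0.49), *Myom2* (-0.38), *Lmod3* (-0.29), and, close to 0, *Actc1* (-0.13) and *Myl1* (-0.12). Among the regulators *Pax3* (-0.61), *Myf5* and *Myf6* (-0.59, in the same bin), *Mef2c* and *Id2* (both -0.59) and *Eya1* (-0.45) were in B, of which *Pax3* and *Myf5* act early, in progenitors, and *Myf6* and *Mef2c* in differentiation. In excitation-contraction coupling, B held *Cacna2d1* and *Trdn* (both -0.56), *Casq1* (-0.37; calsequestrin, the calcium store of the sarcoplasmic reticulum), *Sln* (-0.25), *Jph1* (-0.14) and *Jph2* (-0.06). In fusion and adhesion it held *Jam3* (-1.32, the lowest of all muscle genes listed), *Nfatc2* (-0.96), *Cav3* (-0.68), *Jam2* (-0.58), *Myof* (-0.31), *Cdh2* (-0.21) and *Dock1* (-0.20).

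Genes that act on AraC or on the damage it causes were spread over both compartments. Of 13 genes for its uptake and metabolism 7 were in A (53.8%, interval 25.1 to 80.8%). The nucleoside transporters *Slc29a2* (2.25) and *Slc29a1* (1.78), the inactivating deaminase *Cda* (2.10) and the triphosphate hydrolase *Samhd1* (1.84) were in A, and the activating kinases *Cmpk1* (-1.07) and *Dck* (-0.78) in B. *Rrm2b*, a ribonucleotide reductase subunit, lay at 0 within rounding (-0.0004), and its assignment changed with 3 of the 6 other ways of computing PC1. Of 18 genes of the DNA damage response 13 were in A (72.2%, 46.5 to 90.3%), from *Parp1* (2.50) down, and *Chek1* (-0.76) was the lowest. Of 23 genes of cytosolic DNA sensing and the interferon response 12 were in A (52.2%, 30.6 to 73.2%), with *Tmem173*, which encodes the adaptor STING, highest (2.16) and *Ddx58*, which encodes the RNA sensor RIG-I, lowest (-1.05). The *Naip* genes on chr 13, which encode sensors of the inflammasome, share a bin (chr13:100000001-100500000) with PC1 of 1.11 SD and a mean trans coefficient of 0.0805 with A bins.

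Of 35 genes of the cell cycle and DNA replication, inhibitors of the cycle included, 25 were in A (71.4%, 53.7 to 85.4%; median 0.75 SD), *Cdt1* (2.61) and *Ccnd1* (2.48) being the highest and *Aurka* (-1.20) and *Plk1* (-0.94), kinases of mitosis, the lowest. The 66 replication-dependent histone genes occupied just 5 bins: the *Hist2h* genes on chr 3 at 2.81 SD, *Hist3h2a* and *Hist3h2ba* on chr 11 at 0.41, and the *Hist1h* genes of chr 13 divided between a bin at 23.5 Mb in A (0.29) and bins at 21.5 Mb (-0.75) and 22 Mb (-0.98) in B, so that 43 genes (65.2%) counted as A. With bins of weak PC1 left out the share was 30.3%. As the orientation of PC1 was weak on chr 13, the sign of these values rests on an *r* of 0.05 with TSS number. The trans coefficients, which are not independent of the cis block, gave the same assignment on 223 of the 232 bins of that autosome.

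Housekeeping families were high and sensory families low. Cytosolic ribosomal protein genes were in A in 60 of 79 cases (75.9%, 65.0 to 84.9%), from *Rpl13* (2.43) to *Rpl21* (-0.77), and entries for genes of oxidative phosphorylation in 60 of 83 (72.3%, 61.4 to 81.6%; *Atp5o* is annotated as 2 entries in the same A bin), from *Ndufa10* (2.43) to *Ndufs6* (-1.35). In contrast 99 of 1128 olfactory receptor genes (8.78%, 7.19 to 10.6%) and 18 of 263 vomeronasal receptor genes (6.84%, 4.11 to 10.6%) were in A, with medians of -0.74 and -0.62 SD. In each of these families 1 symbol (*Olfr290*, *Vmn1r216*) stands for 2 entries, both in B. These genes lie in arrays, and the 1128 olfactory receptor genes filled 114 bins. Defensins were in A in 13 of 50 cases (26.0%) and Zfp zinc finger genes in 177 of 379 (46.7%). Keratins, the intermediate filament proteins of epithelia and another family in arrays, were in A in 86 of 113 cases (76.1%) spread over 15 bins.

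Among genes typical of other cell types, neuronal genes stood lowest, with 4 of 21 in A (19%, interval 5.45 to 41.9%; median -0.65 SD), from *Tubb3* (2.43) to *Grin2a* (-1.18). Liver and blood genes were in A in 7 of 17 cases each (41.2%, 18.4 to 67.1%), liver genes running from *G6pc* (1.53; glucose-6-phosphatase) to *Serpina1a* (-1.03) and *Csf1r* (2.03; a macrophage growth factor receptor) being the highest blood gene. The fibrinogen genes *Fga*, *Fgb* and *Fgg*, 3 of the 7 liver genes counted in A, share a bin at 0.01 SD, and with PC1 from uncentred columns the liver share was 17.6%. Of 14 fibroblast genes 8 were in A (57.1%, 28.9 to 82.3%), the share of all genes, from *Twist2* (2.43) and *Prrx1* (2.19) to *Tcf21* (-0.76).

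**Figure D5:**
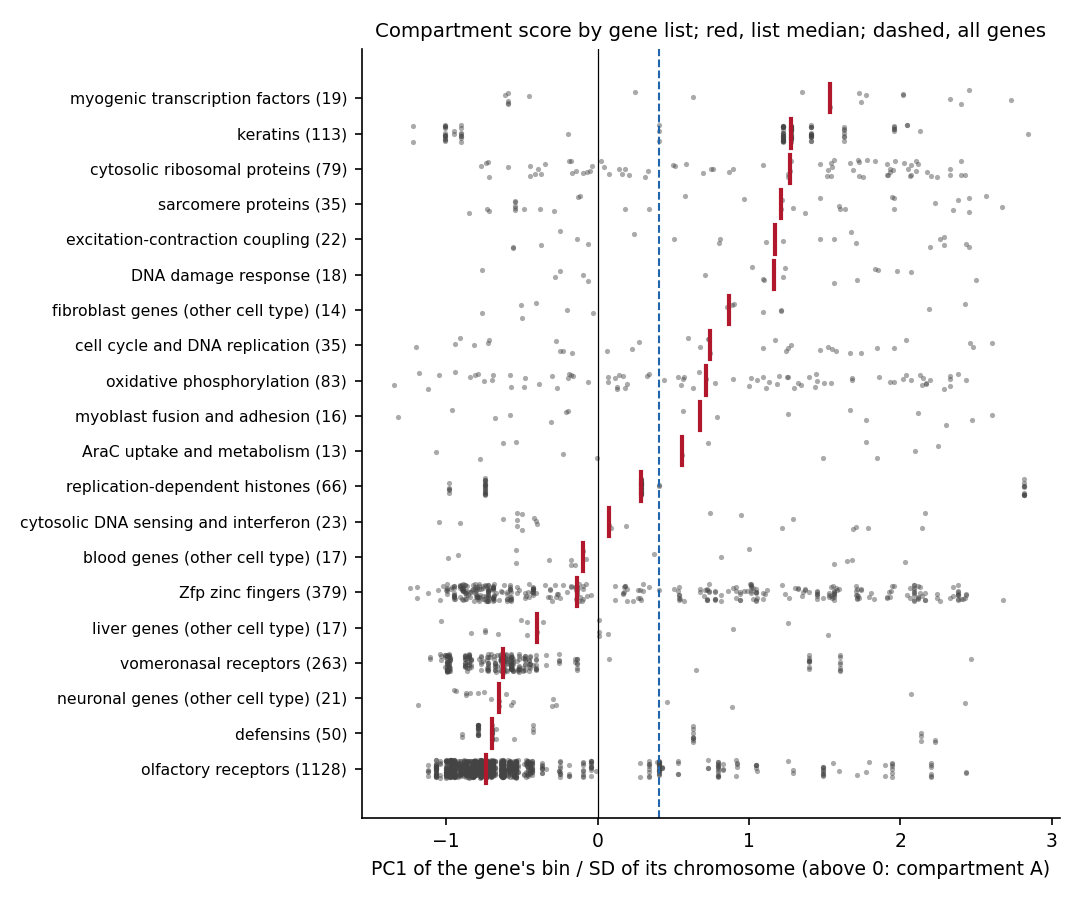
PC1 of the bin of each gene's TSS, divided by the SD of its autosome, for 20 gene lists (number of genes in brackets), with list medians in red, the boundary between B (left) and A (right) as a black line and the median of all 20396 genes (0.41) dashed. Myogenic transcription factors have the highest median (1.54) and olfactory receptors the lowest (-0.74); columns of points are genes that share a bin.

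The trans correlation among bins of a list followed its share of genes in A only loosely. The mean trans coefficient among bins of a list was 0.0724 for the DNA damage response, 0.0636 for ribosomal proteins and 0.0635 for excitation-contraction coupling. It was 0.0619 for keratins, 0.0583 for the sarcomere and 0.0518 for myogenic factors, against 0.0031 over all trans bin pairs. It was 0.0189 for fusion and adhesion genes, 0.0129 for DNA sensing and 0.0107 for olfactory receptors. Cell cycle genes (71.4% in A) had 0.0350, oxidative phosphorylation (72.3%) 0.0301 and vomeronasal receptors (6.84%) 0.0300. The histone bins (65.2% of genes in A), with only 7 trans pairs, had -0.0276. Pairs in the highest quintile of PC1 averaged 0.187 over all its bins. Whether the list means differ from those of other bins of like PC1 was not tested, and they show no contacts among the genes of a list.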

How the data were processed

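Hi-C libraries from AraC-treated C2C12 myotubes were analysed from a single matrix, pooled by the authors over 2 replicates. Per the labels, the authors mapped reads to mm10 with Bowtie and used HOMER. The deposited score is HOMER's Pearson correlation coefficient of normalized interaction profiles of 500 kb bins. The number of reads behind it cannot be read from the matrix. Columns of other samples used: 0.

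Bins needed a diagonal above 0.5. PC1 came from each autosome's cis block (columns centred, not scaled) and was signed by GENCODE TSSs. Genes followed the bin of their TSS. Named were the 10 strongest trans pairs, the 3 strongest per class, extreme bins, the 3 longest runs per compartment, the members in B of the muscle lists and the highest and lowest of other lists (not of the families matched by symbol, apart from ribosomal and oxidative phosphorylation genes). Any further gene was picked with its value known. The members and lists were chosen with earlier results of these data known. Python 3.11.15, NumPy 2.4.6, pandas 2.3.3, SciPy 1.17.1 and Matplotlib 3.10.9 were used, and the scripts were tested on simulated data. Alternatives covered the bin filter, PC1, weak bins, means, ranks and runs. Chromosome X was left out, and 1 of the strongest B-B pairs and 1 list gene that the rule names are not reported here.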

Additional observations from a re-analysis of the deposited data

How the results depend on the processing

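Of 373 values recomputed for 44 results, 344 were labelled the same, 26 moved and 3 changed sign. The causes were not tested. The limit for a move was a spread only for values that have one, such as class means. Shares were held against their counting intervals, and counts against a fixed factor. Those intervals are wide for short gene lists, so the label says little about how stable their shares were. With bins of weak PC1 (lowest 20% of absolute values per autosome) left out, the cis means were 0.0756 for B-B and -0.0767 for A-B, and the trans means 0.122 for A-A, 0.0525 for B-B and -0.0746 for A-B; the share of genes in A was then 61.2% for all genes, 80% for the sarcomere, 92.9% for the DNA damage response, 86.4% for ribosomal proteins, 30.3% for histones and 6.46% for olfactory receptors. With medians over bin pairs, trans A-A was 0.0531, the coefficient 0.0812 at 0.5 Mb and 0.0038 at 100 Mb (against -0.0012), and the trans value 0.0239 for chr 18 with chr 19, 0.0015 for chr 6 with chr 11 (against -0.0048), 0.0120 for chr 19 and 0.0081 for chr 2. The mean of chromosome means was 0.0014 at 100 Mb. With PC1 from uncentred columns, A held 32.2% of bins, 53.8% of all genes and 17.6% of liver genes, and the longest B run was 41.5 Mb. Joining single-bin runs raised the median A run to 3 Mb, and leaving out bins within 5 Mb of a data end raised the mean of chr 19 to 0.0077. Ranks within both bins gave 988 bins and 18.9% A-A pairs, and the top 100 and top 10000 pairs used 38 and 270 bins. No paired analysis was possible because the replicates were pooled before deposit, which also leaves the replicate error and the depth behind each coefficient unknown.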
